A study of Citrus unshiu with 6 samples.

Results

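DELLA genes and related genes of the GRAS family were followed in the peel of Satsuma mandarin (Citrus unshiu) fruit with roughing disorder (RD) and of control fruit (CK). The 9 genes are those that the study names DELLA1, DELLA2, DELLA4, DELLA5, DELLA6, DELLA7 and DELLA8, and the 2 genes whose best protein match is GAI-like or GAIP-B-like. They were taken by gene ID from a table of 23099 genes. The first 7 were chosen by the study from genes that differed between RD and CK peel at 30 days after full bloom (DAFB), so their difference at that stage is a description and supports nothing further. The other 2 were added by name, when results of these data were already known.

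RD peel came from “Yamashitabeni wase” trees on trifoliate orange rootstock whose fruits were removed at fruit set, except for some upward ones, and CK peel came from trees that kept their fruits. RD and CK peel thus differed in tree, fruit load and possibly fruit position as well, which cannot be told apart from the disorder. RD30, RD80 and RD170 are the RD libraries at 30, 80 and 170 DAFB, the stages of cell division, cell enlargement and maturity, and CK30, CK80 and CK170 are the controls of the same age. A single pool of peel, mixed from the study's replicate samples, stands behind each of the 6 libraries, so no value has a replicate error and each difference is one between 2 pools. Levels are FPKM, in which sequenced fragments are scaled by the length of the transcript and by the mapped total of the library, so that levels of different genes can be compared. A gene was counted as higher or lower when FPKM differed at least 2-fold and was at least 1 in the higher library.

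DELLA proteins are nuclear repressors of growth. In Arabidopsis, gibberellin (GA) binds the receptor GID1, the complex takes hold of the DELLA protein, and an F-box protein, called GID2 in rice, marks it for breakdown, so that GA releases growth by removing the repressor. DELLA proteins are 1 branch of the GRAS family of plant regulators, and scarecrow-like proteins, SCARECROW and SHORT-ROOT form other branches. As DELLA activity is set largely by protein breakdown, transcript levels as measured here do not give the amount of the protein.

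The best matches did not bear out a DELLA identity for all 9 genes. DELLA1 (orange1.1t03259) matched DELLA protein RGL1-like, Cs6g17530 matched DELLA protein GAI-like, and Cs2g16940 matched DELLA protein GAIP-B-like. DELLA5 (Cs7g32390) matched scarecrow-like protein 14, DELLA6 (Cs1g21500) matched SHORT-ROOT, and DELLA7 (Cs2g01990) matched scarecrow-like protein 13. DELLA2 (Cs2g22130), DELLA4 (Cs1g24030) and DELLA8 (Cs4g12130) matched hypothetical proteins of Citrus clementina, so their branch is not known from the table. No other gene in the table has the same best-match protein entry as any of the 9. Cs8g18700, Cs3g03200 and Cs5g07000 are, however, also described as scarecrow-like protein 14, so reads may have been divided between them and DELLA5, whose values are uncertain in that respect. The study's names are kept below as names only.

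The gene matching GAI, the founding DELLA repressor of Arabidopsis, was higher in RD peel at 30 and 80 DAFB. Cs6g17530 had an FPKM of 51.3 in RD30 against 5.92 in CK30, 61.05 in RD80 against 22.6 in CK80, and 18.8 in RD170 against 13.1 in CK170. The ratio of RD to CK was 8.66-fold at 30 DAFB, 2.70-fold at 80 DAFB and 1.44-fold at 170 DAFB, so the 2-fold limit was passed at 30 and 80 DAFB only. In pooled peel, fewer cells of a type and less RNA per cell cannot be told apart. In CK peel the gene was lowest at 30 DAFB and highest at 80 DAFB, while in RD peel it was already near its highest level at 30 DAFB. Its level exceeded that of 89.8% of the genes detected in RD30 and of 47.5% of those in CK30.

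Cs2g16940, the GAIP-B-like gene (GAIP-B is a DELLA protein of pumpkin), took a similar course at a smaller difference. It had 32.75 in RD30 against 13.8 in CK30, 32.6 in RD80 against 24.8 in CK80, and 10.8 in RD170 against 7.85 in CK170. The ratio was 2.37-fold at 30 DAFB, and 1.31-fold and 1.37-fold at the later stages, which is within the 2-fold limit. Both peels lost this transcript between 80 and 170 DAFB, by 3.02-fold in RD peel and by 3.16-fold in CK peel. Summed over the GAI-like and GAIP-B-like genes, FPKM was 84.0 in RD30 against 19.7 in CK30, 93.6 in RD80 against 47.4 in CK80, and 29.6 in RD170 against 21.0 in CK170.

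DELLA1, the RGL1-like gene, was barely detected. Its FPKM was 0.81 in RD30 against 0.04 in CK30, 0.14 in RD80 against 0.09 in CK80, and 0.18 in RD170 against 0.09 in CK170. It stayed under the limit of 1 in all 6 libraries and was not counted at any stage. Because values are written to 2 decimals, its ratio of 20.25 at 30 DAFB could lie anywhere between 17.9 and 23.3 from rounding alone, and the reads behind it are not known. The table holds 4 more genes that match DELLA proteins, and their summed FPKM was at most 0.36 in RD peel and 0.67 in CK peel. The GAI-like and GAIP-B-like genes thus carried nearly all transcript of genes with a DELLA match in these libraries.

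**Figure D1:**
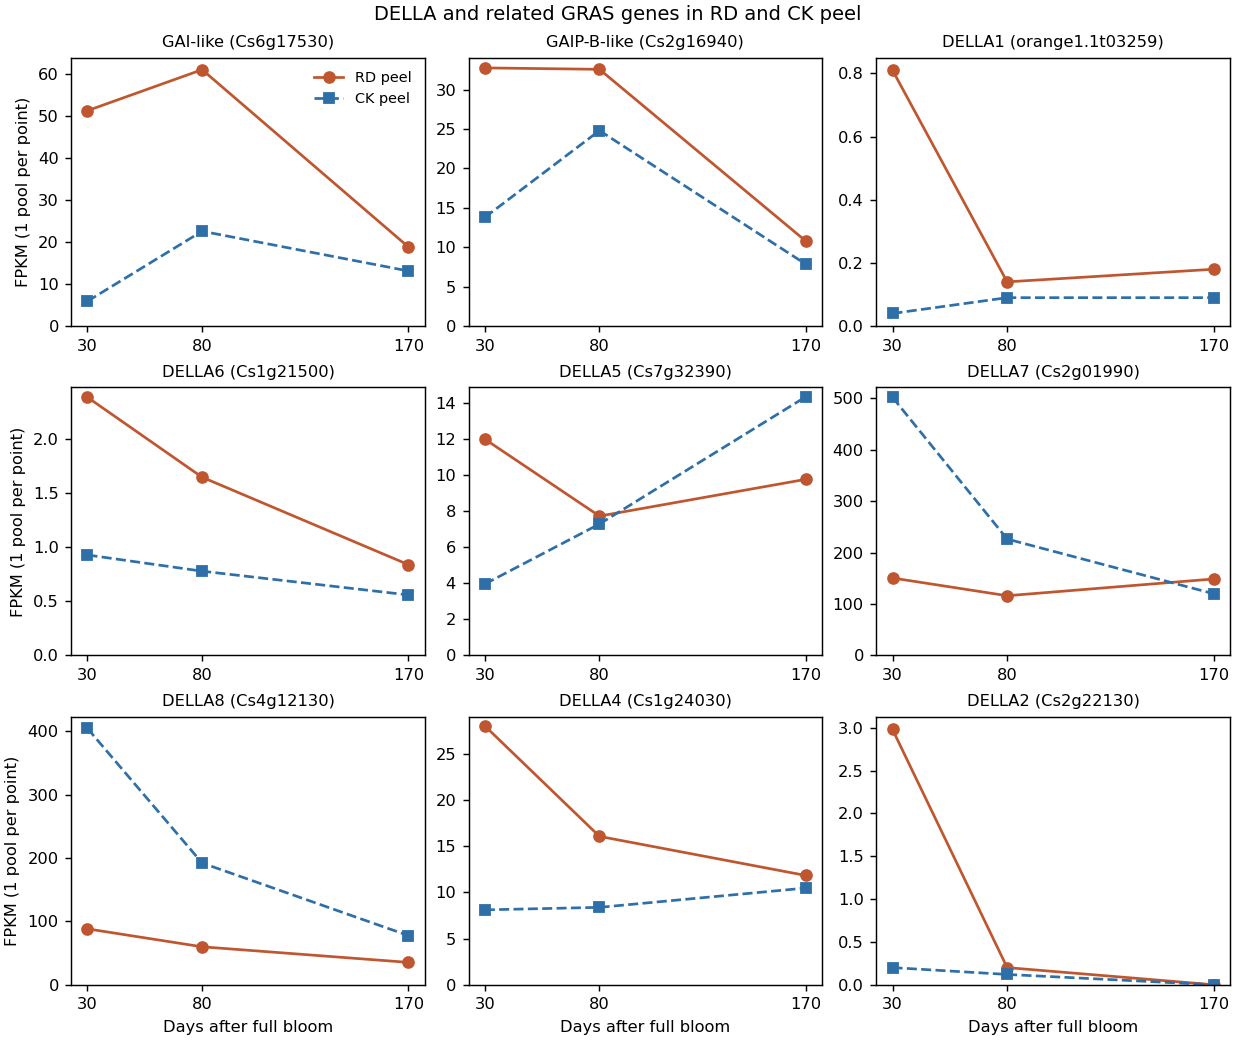
FPKM of each of the 9 genes (vertical axis, from 0, on its own scale) against days after full bloom, with RD peel as filled circles on solid lines and CK peel as squares on dashed lines, 1 pool per point. The GAI-like gene has 51.3 in RD30 against 5.92 in CK30, whereas DELLA8 has 88.1 against 404 and lies lower in RD peel at all 3 stages.

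DELLA7 and DELLA8 were the most abundant of the 9 genes in CK peel and the only ones that were lower in RD30. DELLA7, whose match SCL13 acts in phytochrome B light signalling in Arabidopsis, had 151 in RD30 against 502 in CK30 and 116 in RD80 against 226 in CK80, and at 170 DAFB 149 in RD170 against 120.0 in CK170. It was 3.33-fold lower in RD30, and its level in RD80 was 1.95-fold below that of CK80, just within the limit, with a ratio of 1.24-fold in the other direction at 170 DAFB. Its CK values were lower at each later stage, while its 3 RD values lay between 116 and 151.

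DELLA8 had 88.1 in RD30 against 404 in CK30, 59.8 in RD80 against 192 in CK80, and 35.2 in RD170 against 77.5 in CK170. It was the only 1 of the 9 genes beyond the limit at all 3 stages, at 4.59-fold, 3.21-fold and 2.20-fold lower. Its level was lower at each later stage in RD peel as in CK peel.

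The study followed DELLA7 and DELLA8 by quantitative PCR in biological replicates as well, and lists primers for the other genes it names DELLA too. For the genes it measured, it reports patterns similar to those of sequencing, with some differences in amount. Those PCR values are not used here. The primer pairs of DELLA7 and DELLA8 tie these names to transcripts, and they are shown because these 2 genes set the summed level of the 9. Sequences run 5′ to 3′, and capitals mark the last 5 bases, the end from which the polymerase extends.
DELLA7 forward: ggaagcagtggagaATGAA
DELLA7 reverse: ccagttatgcggaCAAGT
DELLA8 forward: cttactcgtcttcttgtccTACTG
DELLA8 reverse: tgctcctggctatcACTCA
They are 18 to 24 bases long.

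DELLA4, the remaining gene with intermediate levels, was highest in RD30. It had 28 in RD30 against 8.10 in CK30, 16.05 in RD80 against 8.37 in CK80, and 11.8 in RD170 against 10.5 in CK170. The CK values lay close together over the whole period, and the RD values approached them with age, at ratios of 3.46-fold, 1.92-fold and 1.13-fold. DELLA5, whose match SCL14 acts with TGA factors in detoxification in Arabidopsis, had 12.0 in RD30 against 3.96 in CK30, 7.73 in RD80 against 7.29 in CK80, and 9.77 in RD170 against 14.35 in CK170. It was 3.03-fold higher in RD30 and had a level 1.47-fold below that of CK170 in RD170, within the limit. Its CK values were higher at each later stage, and its lowest RD value was that of RD80.

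DELLA6 and DELLA2 were weak. DELLA6, whose match SHORT-ROOT directs root layer formation together with SCARECROW in Arabidopsis, had 2.39 in RD30 against 0.93 in CK30, 1.65 in RD80 against 0.78 in CK80, and 0.84 in RD170 against 0.56 in CK170. It passed the limits at 30 and 80 DAFB, with ratios of 2.57-fold and 2.12-fold, through an FPKM of at least 1 in RD peel alone. DELLA2 had 2.98 in RD30 against 0.20 in CK30 and 0.20 in RD80 against 0.12 in CK80, and it is listed at 0 in RD170 and CK170. It counted at 30 DAFB only because of its level in RD30, so it had to differ there.

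Over the 9 genes, 8 reached an FPKM of 1 at 30 DAFB, and 6 of these were higher in RD30 and 2 lower. Of all 17419 genes that reached it, 25.6% were higher and 6.34% lower, but nothing is read from this count, as that contrast chose most of the genes. At 80 DAFB 7 reached the limit, of which the GAI-like gene and DELLA6 were higher in RD80, where 5.2% of all genes were, and DELLA8 was lower, where 4.86% were. At 170 DAFB 6 reached it, none was higher in RD170 (8.14% of all genes were), and DELLA8 was lower (10.1%). DELLA6 is among the 7 at 80 DAFB only through its level in RD80, and most of the 9 genes were chosen on the gap at 30 DAFB. Nothing is therefore read from the counts at 80 and 170 DAFB either. The genes nearest to the limit at 80 DAFB were DELLA6, past it with a log2 ratio of 1.08, and DELLA7 (-0.96) and DELLA4 (0.94), which did not reach it. At 30 DAFB the nearest past it were the GAIP-B-like gene (1.25) and DELLA6 (1.36).

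**Figure D2:**
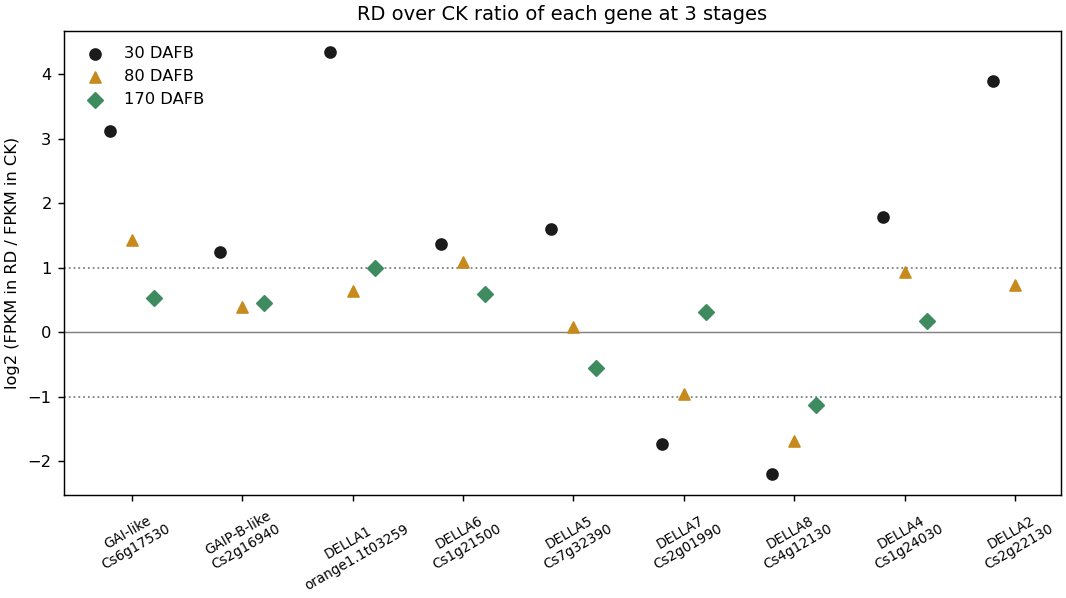
The log2 ratio of FPKM in RD peel to CK peel (vertical axis) for each of the 9 genes, as circles at 30 DAFB, triangles at 80 DAFB and diamonds at 170 DAFB, with dotted lines at the 2-fold limit. All genes but DELLA7 and DELLA8 are above 0 at 30 DAFB, and only DELLA8 (-1.14) is beyond a dotted line at 170 DAFB among genes with an FPKM of at least 1. DELLA2 has no point at 170 DAFB, where it is listed at 0, and DELLA1 lies under an FPKM of 1 throughout.

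Ratios at 30 DAFB were shifted in general. Over the 15762 genes with an FPKM of at least 1 in both libraries, log2 RD30/CK30 had a median of 0.43, and the 6 of the 9 genes among them had 1.42. Relative to that median, the split of all genes was 2421 higher and 1873 lower in RD30, in place of 4458 and 1104, and the GAIP-B-like gene (0.82) and DELLA6 (0.93) no longer reached the 2-fold limit, which left 4 higher and 2 lower. At 80 DAFB the median was 0.09 over all genes and 0.24 over the 6, and at 170 DAFB it was -0.11 over all genes and 0.24 over the 6. Relative to the median at 80 DAFB, DELLA7 passed the limit as lower (-1.06) and DELLA6 no longer passed it (0.99).

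The gap between RD and CK peel was smaller at later stages in most of these genes. Among the 6 with an FPKM of at least 1 in every library, the absolute log2 ratio was smaller at 170 than at 80 DAFB in 4, namely DELLA4, DELLA7, DELLA8 and the GAI-like gene. In DELLA7 the ratio also turned, from a log2 of -0.96 to 0.31. The absolute log2 ratio was likewise smaller at 170 DAFB in 37.3% of the 14337 genes with that level. From 30 to 80 DAFB it narrowed in all 6, and in 77.2% of all genes. Most of the genes had been chosen on the gap at 30 DAFB, which can bear on both steps, so nothing is read from either share. The 2 exceptions at maturity were DELLA5, with log2 ratios of 0.08 at 80 DAFB and -0.55 at 170 DAFB, and the GAIP-B-like gene, with 0.39 and 0.46.

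RD80, which the study's choice of its 7 genes at 30 DAFB did not use, was also set against all 3 CK libraries, of which CK30 was used in that choice. The GAI-like gene, the GAIP-B-like gene, DELLA4 and DELLA6 were higher in RD80 than in any CK library, 4 of the 8 genes that reached an FPKM of 1 in any library, against 24.2% of all 18748 such genes. DELLA6 and DELLA2 are among these 8 only through their level in RD peel, so nothing is read from the difference between the shares. DELLA7 and DELLA8 were lower in RD80 than in any CK library, 2 of 8 against 9.51%. For DELLA7 this rests on 116 in RD80 against 120.0 in CK170, a difference that has no replicate check. In RD170 only DELLA4 was above all CK libraries, 1 of 8 against 20% of all genes, and only DELLA8 below them, 1 of 8 against 16.1%. In RD30 DELLA7 and DELLA8 lay inside the CK range, between their levels in CK80 and CK170.

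The summed level of the 9 genes was lower in RD peel at 30 DAFB, by more than the 2-fold limit, and its make-up differed. The sum was 369 in RD30 against 939 in CK30, 295 in RD80 against 482 in CK80, and 236 in RD170 against 244 in CK170. The ratio of the sums was 0.393, 0.612 and 0.968 at 30, 80 and 170 DAFB, and the last is smaller in size than the shift of the all-gene median at that stage. DELLA7 and DELLA8 made up 64.7% of it in RD30 against 96.5% in CK30, 59.6% in RD80 against 86.7% in CK80, and 77.9% in RD170 against 81.0% in CK170. The GAI-like and GAIP-B-like genes made up 22.8% in RD30 against 2.10% in CK30, 31.7% in RD80 against 9.82% in CK80, and 12.5% in RD170 against 8.60% in CK170. The 2 peels were thus most alike in this respect at maturity. The order of levels was the same at the top in 5 of the 6 libraries, with DELLA7 first and DELLA8 next. The exception was RD80, where the GAI-like gene (61.05) and DELLA8 (59.8) stood side by side. Whether such neighbours differ cannot be told without replicates.

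**Figure D3:**
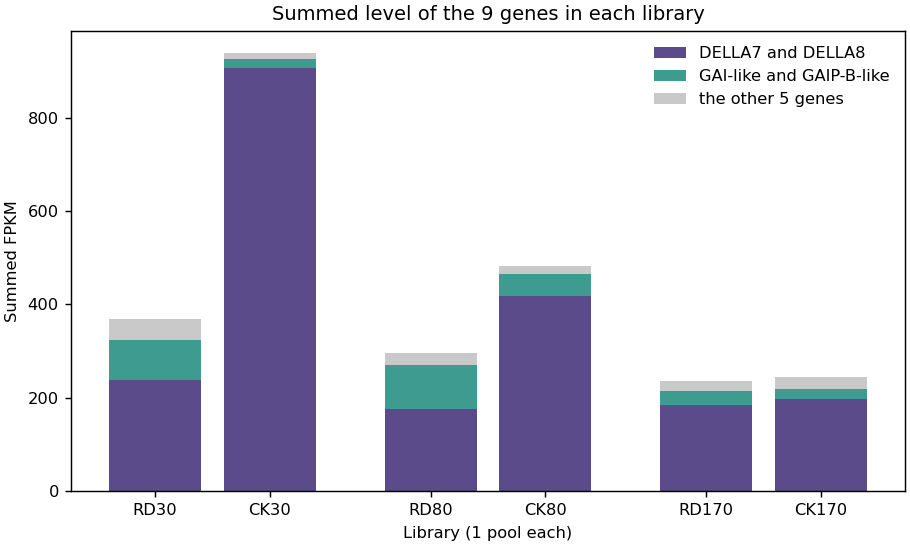
Summed FPKM of the 9 genes (vertical axis, from 0) in each library, 1 pool each, divided into DELLA7 and DELLA8 (purple), the GAI-like and GAIP-B-like genes (green) and the other 5 genes (grey). The bar of RD30 reaches 369 and that of CK30 939, and the green part is 84.0 in RD30 against 19.7 in CK30.

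Between stages, the GAI-like gene, the GAIP-B-like gene and the abundant DELLA7 and DELLA8 made up most of the changes. In RD peel, DELLA2 was the only 1 of 8 that changed at least 2-fold, with 0.20 at 80 DAFB against 2.98 at 30 DAFB (16.6% of all genes changed). In CK peel 3 of 6 changed (32.4% of all genes), the GAI-like gene being 3.82-fold higher at 80 than at 30 DAFB, DELLA7 2.22-fold lower and DELLA8 2.11-fold lower. When levels were scaled to ACTIN, DELLA7 and DELLA8 no longer passed the limit in this step, and the GAIP-B-like gene and DELLA5 passed it as higher in CK80. From 80 to 170 DAFB 2 of 7 changed in RD peel (26.5% of all genes), the GAI-like gene at 3.24-fold lower and the GAIP-B-like gene at 3.02-fold lower. In CK peel 2 of 6 changed (32.3%), the GAIP-B-like gene at 3.16-fold lower and DELLA8 at 2.48-fold lower. The number of genes compared differed between peels, since a level of at least 1 was needed at either stage, and the difference between the peels was not tested.

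Over the 6 libraries, DELLA7 and DELLA8 varied together (Pearson's r = 0.89 on log2 of FPKM + 1), and DELLA7 varied against DELLA5 (r = -0.85) and the GAI-like gene (r = -0.70). DELLA4 and DELLA6 had r = 0.89, and the GAI-like and GAIP-B-like genes r = 0.77. These values describe 6 pools that share stages and treatment, and many genes reach a high r over so few points. Of 12226 other genes with an FPKM of at least 10 in 1 library or more, those most like DELLA8 were a hypothetical protein gene (Cs9g05750, r = 0.994), annexin D2-like (Cs1g01540, 0.993), of a family of calcium-dependent membrane-binding proteins, and another hypothetical protein gene (Cs3g23680, 0.993). Those most like DELLA7 (Cs7g32520 with r = 0.998, Cs5g03290 with 0.996 and Cs7g29020 with 0.996) have no described function in the table. Cs7g32520 had 36.8 in RD30 against 178 in CK30, 27.4 in RD80 against 69.8 in CK80, and 38.8 in RD170 against 31.1 in CK170. The gene most like the GAI-like gene was Cs4g16830 (0.992), and that most like the GAIP-B-like gene was Cs6g03770 (0.999), both hypothetical protein genes. The gene most like DELLA1 was the methyltransferase gene Cs7g17530 (0.985), that most like DELLA2 the mannosidase gene Cs5g04970 (0.988), and that most like DELLA4 the uncharacterized Cs1g11150 (0.997). For DELLA5 it was the kanadaptin-like Cs6g19910 (0.998), and for DELLA6 the polyprenyltransferase gene Cs7g14060 (0.997). DELLA1 had 0.81 in RD30 and at most 0.18 elsewhere, and DELLA2 had 2.98 in RD30 and at most 0.20 elsewhere. Their r values thus rest mainly on the single library RD30.

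The other genes described as GRAS family members are those left once the 9 were taken out, most of which were chosen on the 30 DAFB contrast. Taking the 9 out can itself shift the counts and the median of the rest at 30 DAFB. Ratios of the other GRAS genes are given beside those of all genes and not against the 9, and nothing is read from them at 30 DAFB. Of 17 such genes, 11 reached an FPKM of 1 at 30 DAFB, of which 2 were higher in RD30 (25.6% of all genes) and none was lower (6.34%). These 2 were the weak scarecrow-like protein 3 gene Cs7g02550, with 2.03 in RD30 against 0.34 in CK30, and nodulation-signaling pathway 1 (Cs1g17530), with 1.62 in RD30 against 0.80 in CK30. SCL3 counteracts DELLA repression in Arabidopsis. At 80 DAFB none of 9 passed the limit (5.2% of all genes were higher and 4.86% lower), and at 170 DAFB 4 of 9 were lower in RD170 (10.1%) and none was higher (8.14%). Among those 4, the scarecrow-like protein 14 gene Cs8g18700 had 15.05 in RD170 against 40.1 in CK170, Cs3g03200 of the same description 3.35 against 9.51, and Cs1g17530 0.78 against 2.29. As Cs8g18700 and Cs3g03200 share their description, reads may have been divided between them, and their values are uncertain. The most abundant of the 17, scarecrow-like protein 8 (Cs9g19410), had 49.0 in RD30 against 38.4 in CK30, 37.7 in RD80 against 51.1 in CK80, and 54.6 in RD170 against 67.0 in CK170. Over members with an FPKM of at least 1 in both libraries, the median log2 ratio of this list was -0.28, -0.34 and -0.96 at 30, 80 and 170 DAFB, against 0.43, 0.09 and -0.11 over all genes.

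**Figure D4:**
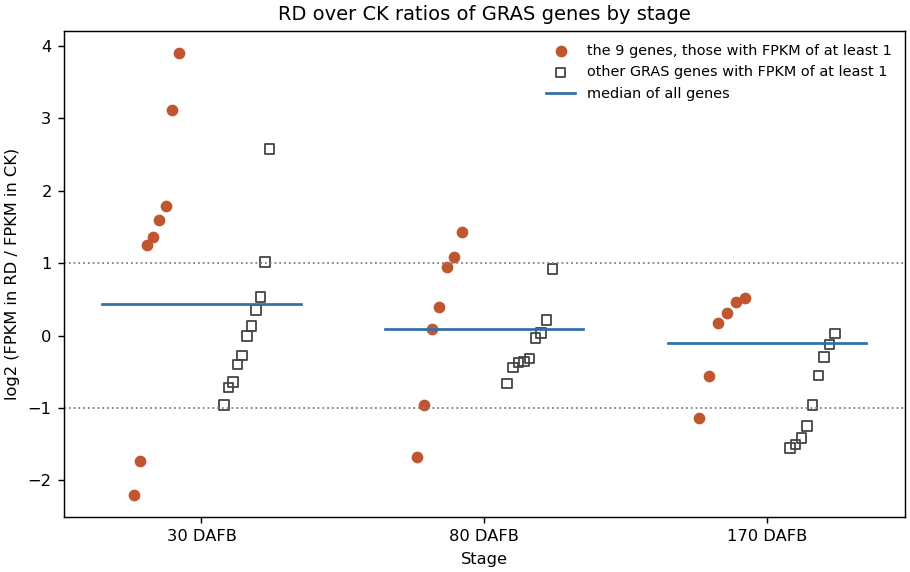
The log2 ratio of FPKM in RD peel to CK peel (vertical axis) at the 3 stages, for those of the 9 genes (filled circles) and of the other genes described as GRAS (open squares) that reached an FPKM of 1 in the higher library, with the median of all genes as a horizontal bar and the 2-fold limit dotted. At 30 DAFB 2 open squares lie above the upper dotted line, and at 170 DAFB 4 lie below the lower one. Most of the 9 genes were chosen on the contrast at 30 DAFB, so circles and squares are not compared.

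The study names 7 genes GID1 or GID2, after the GA receptor and F-box protein that act just upstream of DELLA proteins. Their best matches are carboxylesterases, a 2-hydroxyisoflavanone dehydratase or hypothetical proteins, so these names too are kept as names only. All 7 were higher in RD30, where 25.6% of all genes were. At 80 DAFB, where 5.2% of all genes were higher and 4.86% lower, none of the 7 that reached an FPKM of 1 passed the limit. At 170 DAFB, where 8.14% were higher and 10.1% lower, none of the 5 that reached it did. With so few genes at such shares, nothing is read from these counts. The log2 ratios of the 7 at 80 DAFB lay between 0.47 and 0.91. This list was chosen by the study on these libraries, so its direction at 30 DAFB is not independent evidence. The gene named GID2 (Cs3g23040), which matched a hypothetical protein, was the most abundant of them. It had 61.0 in RD30 against 29.9 in CK30, 60.1 in RD80 against 43.4 in CK80, and 40.7 in RD170 against 29.6 in CK170. The 6 bHLH factors named by the study were likewise all higher in RD30 by its choice. At 80 DAFB 1 was higher (5.2% of all genes) and 1 lower (4.86%). The lower one was also the most abundant, Cs7g02010, with 15.2 in RD80 against 32.6 in CK80. Of 11 GA synthesis genes, 5 reached an FPKM of 1 at 30 DAFB, and 3 were higher in RD30 (25.6% of all genes) and none lower (6.34%). At 80 DAFB 1 of 6 was higher in RD80 (5.2%) and 1 lower (4.86%). At 170 DAFB 2 of 6 were higher in RD170 (8.14%) and none lower (10.1%). Their most abundant member, an ent-kaurene oxidase (orange1.1t01910), had 25.9 in RD30 against 9.21 in CK30, and its ratio was within the limit at the later stages. Of 5 GA inactivation genes, with a summed FPKM of 44.3 in RD30 against 37.5 in CK30, 2 reached an FPKM of 1 at 30 DAFB. Of these, 1 was higher in RD30 (25.6% of all genes) and 1 lower (6.34%). The higher one was the gibberellin 2-beta-dioxygenase 8 gene Cs2g07550, named after its values were seen, with 27.6 in RD30 against 0.43 in CK30, 27.6 in RD80 against 14.3 in CK80, and 11.2 in RD170 against 3.14 in CK170. It was past the limit at 30 and 170 DAFB. Gibberellin 2-beta-dioxygenase 2 (Cs9g01770), which inactivates GA, was lower at all 3 stages, with 16.03 in RD30 against 36.9 in CK30, 10.5 in RD80 against 24.6 in CK80, and 10.1 in RD170 against 23.5 in CK170.

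Among genes for proteins known to bind or modify DELLA proteins in Arabidopsis, the most abundant ones were jasmonate repressors of the TIFY (JAZ) family, and of the 3 most abundant the genes Cs1g17220 and Cs2g03240 were lower in RD peel at every stage. Of 11 genes on that list, 10 reached an FPKM of 1 at 30 DAFB, and 1 was higher in RD30 (25.6% of all genes) and 4 were lower (6.34%). At 80 DAFB 4 of 9 were lower in RD80 (4.86%) and none was higher (5.2%), and at 170 DAFB 4 of 8 were lower in RD170 (10.1%) and none was higher (8.14%). TIFY 10A (Cs1g17220) had 73.2 in RD30 against 215 in CK30, 56.6 in RD80 against 210.2 in CK80, and 39.7 in RD170 against 120.0 in CK170. TIFY 5A (Cs2g03240) had log2 ratios of -2.10, -2.98 and -1.93. Cs1g17210, the other of the 3, carries the same TIFY 10A description and was named with its values known. It had 58.55 in RD30 against 75.5 in CK30, within the limit, 19.5 in RD80 against 95.9 in CK80, and 19.5 in RD170 against 75.85 in CK170. Reads may have been divided between Cs1g17220 and Cs1g17210, so their values are uncertain in that respect.

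Markers of other tissues were set beside these results. Of the genes for chlorophyll a-b binding proteins, markers of green tissue, 6 of 7 were higher in RD30 (25.6% of all genes). At 80 DAFB 1 of 7 was higher in RD80 (5.2%), and at 170 DAFB 4 of 6 were higher in RD170 (8.14%). Their summed FPKM was 9912 in RD30 against 4833 in CK30, 11943 in RD80 against 12876 in CK80, and 1201 in RD170 against 125 in CK170. The most abundant of them, Cs2g03780, had 8291 in RD30 against 4395 in CK30. Cuticle and wax genes of the peel surface summed to between 191 and 369 in RD peel and between 173 and 496 in CK peel, and 3 of the 20 stayed under an FPKM of 1 in every library. Their most abundant member, the fatty acyl-CoA reductase 2 gene orange1.1t02246, had 52.2 in RD30 against 36.5 in CK30. Vascular markers summed to between 89.5 and 203 in RD peel and between 170 and 269 in CK peel. The seed list, which late embryogenesis abundant genes dominate, summed to between 274 and 935 in RD peel and between 236 and 1383 in CK peel. Its most abundant member, the late embryogenesis abundant gene Cs9g04210, had 257 in RD30 against 223 in CK30. Of other members, named after their values were seen, the oleosin 1-like orange1.1t03751 had 10.8 in RD30 against 7.73 in CK30. The vicilin-like Cs1g23800 stayed at or under 0.51 in RD peel and 0.35 in CK peel. The part that differences in tissue make-up have in the DELLA results was not tested.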

How the data were processed

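Peel RNA of 6 pools, 1 for each peel and stage, was enriched on oligo(dT) beads and sequenced by Illumina protocols. The authors removed reads with adapters, unknown bases or low quality, mapped the rest to the sweet orange (Citrus sinensis) genome by means of Bowtie and BWA. FPKM were then estimated by the authors, for which the processing notes name RSEM. Versions and the genome build are not given in the sources used here. The deposited FPKM values have 2 decimals and come with the best protein match. Reads per gene are not in the table, so the depth behind each value is unknown, and neither a count test nor the study's false discovery rate was computed. Mapping mandarin reads to another species, and sharing of reads between close relatives, can lower or mix values.

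With 1 library per condition, no test was made. Log2 ratios were taken on FPKM without a pseudocount, with the limits of 2-fold and an FPKM of 1 in the higher library, in Python 3.11.15 with pandas 2.3.3 and numpy 2.4.6. Alternatives were pseudocounts of 1 and 0.1, no minimum, a minimum of 5, and scaling to the median of all genes, to the upper quartile and to ACTIN (Cs7g28810). Gene lists rest on descriptions, so that genes without a described family are missing, and on the study's own IDs. The members and lists were chosen with earlier results of these data known. Named are the 9 genes, and of each list the most abundant member and members beyond the limit in 1 direction at all 3 stages. Of GRAS genes the 3 largest ratios per stage among those beyond it were added, and by Pearson's r the 3 genes most like DELLA7 and DELLA8 and the 1 most like each other gene. None of the 9 IDs was found in the Citrus unshiu gene table at hand, so no positions and no protein or promoter sequences are given.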

Additional observations from a re-analysis of the deposited data

Results flagged for a closer look

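The difference between RD and CK peel turned between stages in 2 genes. DELLA7 (Cs2g01990) was lower in RD30 (log2 ratio -1.74) and had a log2 ratio of 0.31 at 170 DAFB, with 149 in RD170 against 120.0 in CK170. DELLA5 (Cs7g32390) was higher in RD30 (1.60) and had -0.55 at 170 DAFB, with 9.77 in RD170 against 14.35 in CK170. Each stage has 1 pool per peel, so the change of direction was not tested, and both differences at 170 DAFB are within the 2-fold limit.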

How the results depend on the processing

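Of 70 counts of the 9 genes under 7 alternatives, 60 were within 1.5 times the value reported. Genes higher in RD80 numbered 1 rather than 2 with a pseudocount of 1, a pseudocount of 0.1, a minimum FPKM of 5 or ratios taken relative to the all-gene median, and with this last setting 2 rather than 1 were lower, DELLA7 being added. Each time the gene lost was DELLA6. With no minimum, 1 gene (DELLA1, at exactly 2-fold) was higher in RD170 and 2 changed between RD30 and RD80, against 0 with a minimum of 5. Scaled to ACTIN, 5 genes changed between RD80 and RD170 and 4 between CK80 and CK170, each time in place of 2. Between CK30 and CK80 the count stayed at 3 but the genes did not, as DELLA7 and DELLA8 were lost and DELLA5 and the GAIP-B-like gene were added as higher in CK80. The alternative itself makes this change, as ACTIN (Cs7g28810) had 321 in RD170 against 303 in CK170, 189 in RD80 against 192 in CK80, and 215 in RD30 against 247 in CK30. Of 144 log2 ratios of single genes between RD and CK, 136 kept their side of the 2-fold limit and 143 their sign. The other was DELLA5 at 80 DAFB, at -0.01 relative to the median. The calls of DELLA8 at all 3 stages and of the GAI-like gene at 30 and 80 DAFB held under every alternative run. No library could be left out, because each condition has 1. No paired analysis was possible because each condition has 1 library and the labels carry no replicate numbers.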

Other observations

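GA response genes, the cysteine-rich peptides of the GASA and snakin family that GA induces in many plants, differed most at maturity. Of 10 such genes 7 reached an FPKM of 1 at 170 DAFB, and 4 were higher in RD170, where 8.14% of all genes were, and 1 was lower, where 10.1% were. At 30 DAFB 1 of 8 was higher in RD30 (25.6% of all genes) and 1 lower (6.34%). At 80 DAFB 1 of 7 was higher in RD80 (5.2%) and 1 lower (4.86%). The most abundant, gibberellin-regulated protein 1 (Cs3g26100), had 14.6 in RD30 against 7.79 in CK30, 102 in RD80 against 192 in CK80, and 1211 in RD170 against 548 in CK170.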
